A study of Homo sapiens with 9 samples.

Results

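The zinc finger gene clusters of human chromosome 19 were described in CUT&Tag peak lists of A549 cells. Members were the peaks whose summit, the point of highest signal, lay in any of 7 windows of hg19: 9.2 to 10.0 Mb and 11.6 to 12.7 Mb in 19p13.2, 19.7 to 24.4 Mb mostly in 19p12, 36.6 to 38.5 Mb mostly in 19q13.12, 44.3 to 45.0 Mb in 19q13.31, 52.3 to 54.2 Mb from 19q13.41, and 56.0 to 59.1 Mb mostly in 19q13.43. The windows are named below by these bands, with the pair in 19p13.2 called distal (9.2 to 10.0 Mb) and proximal (11.6 to 12.7 Mb). Of 27108 rows in the 3 lists, 304 were members: 204 of 17630 H3K4me3 peaks, 68 of 7027 HA-BAZ2B peaks and 32 of 2451 WT peaks. The windows cover 14.2 Mb, which is 24.0% of the length of the chromosome. Shares of peaks that overlap another list are over the assembled chromosomes.

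A549 is a human lung adenocarcinoma line of epithelial origin. CUT&Tag sends a transposase to the antibody in permeabilised cells, so that the sequenced fragments come from bound sites. The HA-BAZ2B group is A549 with an HA epitope inserted at the 5' end of the cells' own BAZ2B gene, profiled with an anti-HA antibody. The WT group is untagged wild-type A549 profiled with the same antibody and gives the background of the assay, and the H3K4me3 group is the tagged line profiled for that histone mark. Each group had 3 replicate libraries but 1 deposited peak list, and no label states whether the replicates came from separate cultures or whether the tagged line is 1 clone. Each list keeps the peaks of 1 library that recurred in at least 2 replicates, so no spread between replicates could be computed and no difference between groups or regions below was tested. The antibody field of H3K4me3 replicates 2 and 3 names H3K4me4 and H3K4me5, and the titles were followed. A protocol for siRNA transfection appears in the labels without being assigned to any library.

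BAZ2B has a bromodomain, a module that reads acetylated histones, and works together with ISWI ATPases, enzymes that slide nucleosomes along DNA. The clusters of chromosome 19 arose by tandem duplication and hold most of its KRAB zinc finger genes, whose products bind DNA and recruit the corepressor TRIM28, chiefly to silence transposable elements. Their gene bodies are known for the repressive mark H3K9me3, which the zinc finger proteins themselves help to place there, while the start sites of expressed members carry H3K4me3, the mark of active promoters. The series title concerns BAZ2-dependent remodeling and G-quadruplexes, structures that DNA with several neighbouring runs of G can fold into.

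The DNA of these promoters is shown first, because the clusters differ in sequence as well as in their peaks. RefSeq sequences of GRCh38.p14 were used, which is another build than the hg19 of the peak lists, so that genes were matched to the windows by their order along the chromosome and no peak was assigned to a gene. The 7 stretches, from ZNF317 to ZNF846, ZNF627 to ZNF791, ZNF101 to ZNF254, ZNF565 to ZNF573, ZNF283 to ZNF180, ZNF577 to ZNF331 and ZNF579 to MZF1, hold 280 protein-coding genes, of which 230 are zinc finger genes by symbol and 197 of these have a promoter entry. Promoters of 300 bases, from 250 before to 50 after the start, were searched on both strands for 4 runs of 3 or more G that lie 1 to 7 bases apart, counted without overlap. The search found this pattern in 51 of 251 promoters of the zinc finger genes of the stretches (20.3%), in 491 of 1297 other promoters of chromosome 19, those of the other genes in the stretches included (37.9%), and in 6757 of 22199 protein-coding promoters of the genome (30.4%). Among the zinc finger genes of single clusters the share went from 0 of 19 promoters in 19q13.31, 1 of 30 in 19p12 and 2 of 48 in 19q13.12 to 24 of 44 in 19q13.41 (54.5%).

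In 19q13.31, which had no HA-BAZ2B peak, the promoters of ZNF180 and ZNF45 are those richest in CpG among genes with 1 promoter entry, and neither holds the pattern. ZNF180 is on the minus strand at chr19:44500523-44500772 (69.6% G+C) and ZNF45 on the minus strand at chr19:43935283-43935532 (59.2% G+C), both as the 250 bases before the start in GRCh38.p14, 5' to 3' in the direction of the gene. Both genes encode zinc finger proteins.
ZNF180: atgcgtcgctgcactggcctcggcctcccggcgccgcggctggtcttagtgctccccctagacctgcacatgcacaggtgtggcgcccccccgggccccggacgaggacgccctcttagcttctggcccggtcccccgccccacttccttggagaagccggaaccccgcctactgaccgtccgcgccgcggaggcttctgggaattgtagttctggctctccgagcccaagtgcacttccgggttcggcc
ZNF45: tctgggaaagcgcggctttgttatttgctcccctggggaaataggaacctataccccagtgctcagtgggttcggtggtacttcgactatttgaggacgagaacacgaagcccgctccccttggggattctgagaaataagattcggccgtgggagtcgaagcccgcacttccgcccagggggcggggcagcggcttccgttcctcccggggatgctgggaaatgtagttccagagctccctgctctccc

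In 19q13.41, the promoters of ZNF808 and ZNF611, both zinc finger genes, hold the most matches among zinc finger genes with 1 promoter entry, 2 each. ZNF808 is on the plus strand at chr19:52527418-52527667 and ZNF611 on the minus strand at chr19:52735045-52735294, in the same build. Capitals mark the matches, which appear as runs of C because the G runs are on the strand opposite the gene.
ZNF808: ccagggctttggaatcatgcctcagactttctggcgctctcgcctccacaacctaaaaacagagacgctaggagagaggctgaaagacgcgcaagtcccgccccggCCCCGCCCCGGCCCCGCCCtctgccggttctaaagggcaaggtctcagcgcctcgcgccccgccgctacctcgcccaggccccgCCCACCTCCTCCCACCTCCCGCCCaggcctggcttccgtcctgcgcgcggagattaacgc
ZNF611: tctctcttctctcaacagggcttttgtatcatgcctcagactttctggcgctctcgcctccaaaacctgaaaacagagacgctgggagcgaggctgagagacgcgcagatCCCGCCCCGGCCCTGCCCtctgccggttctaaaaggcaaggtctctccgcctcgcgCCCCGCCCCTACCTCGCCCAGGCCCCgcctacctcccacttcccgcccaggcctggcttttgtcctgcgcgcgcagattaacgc

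These ZNF808 and ZNF611 sequences had the same base in 217 of 264 aligned columns (82.2%), against 48.3% to 51.8% for the other pairs of the 4 promoters. The first marked match lies in the same part of both promoters. The second ones lie in neighbouring parts, that of ZNF611 before that of ZNF808, and the like bases of the other promoter are unmarked. Of the 24 zinc finger gene promoters of 19q13.41 with a match, 20 had it only on the strand opposite the gene and 4 only on the gene's strand. A match describes letters and was not measured as a folded structure in these cells.

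H3K4me3 peaks, which mark the promoters in use, numbered 14.4 per Mb in the windows and 19.99 per Mb on the rest of chromosome 19. The latter is over the whole remaining length of 44.9 Mb. That length includes 24.4 to 27.7 Mb, where no H3K4me3 peak was kept. The windows held 18.5% of the H3K4me3 peaks of the chromosome, 14.3% of its HA-BAZ2B peaks and 15.2% of its WT peaks. Among the clusters the H3K4me3 density ran from 5.74 per Mb in 19p12 to 28.6 per Mb in 19q13.31, and the other clusters had 20.0 (distal 19p13.2), 10.9 (proximal 19p13.2), 15.3 (19q13.12), 11.6 (19q13.41) and 25.2 (19q13.43). Neighbouring H3K4me3 summits within a cluster were a median of 32.1 kb apart over 197 gaps, against 25.4 kb over 891 gaps on the rest of the chromosome. A single gap in the clusters was under 2 kb, against 27 elsewhere on the chromosome. The longest gap, 1398 kb in 19p12, ran between the summits at 22034700 and 23433041, and the H3K4me3 peaks at its edges both overlapped an HA-BAZ2B peak.

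The cluster H3K4me3 peaks were high, and few of them were wide. Their median width was 1010.5 bp (interquartile range 810.25 to 1209 bp). It was 1153.5 bp (832.25 to 1500.75 bp) on the rest of chromosome 19 and 1135 bp (810 to 1457 bp) over all chromosomes outside the windows. Their median fold enrichment, the ratio over background that the authors' peak caller gives each peak, was 10.97 (9.24 to 13.1), against 8.25 and 9.05. Their median −log10 q, the caller's significance, was 52.7, against 41.6 and 41.9. Of the 204 peaks, 52 (25.5%, 95% interval 19.7% to 32.0%) were in the top 10% of the whole H3K4me3 list by fold enrichment. By width, 7 (3.43%) were in the top 10% and 16 (7.84%) in the bottom 10%. Intervals on shares were computed by the exact binomial (Clopper-Pearson) method at 95% and hold counting error alone.

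**Figure D1:**
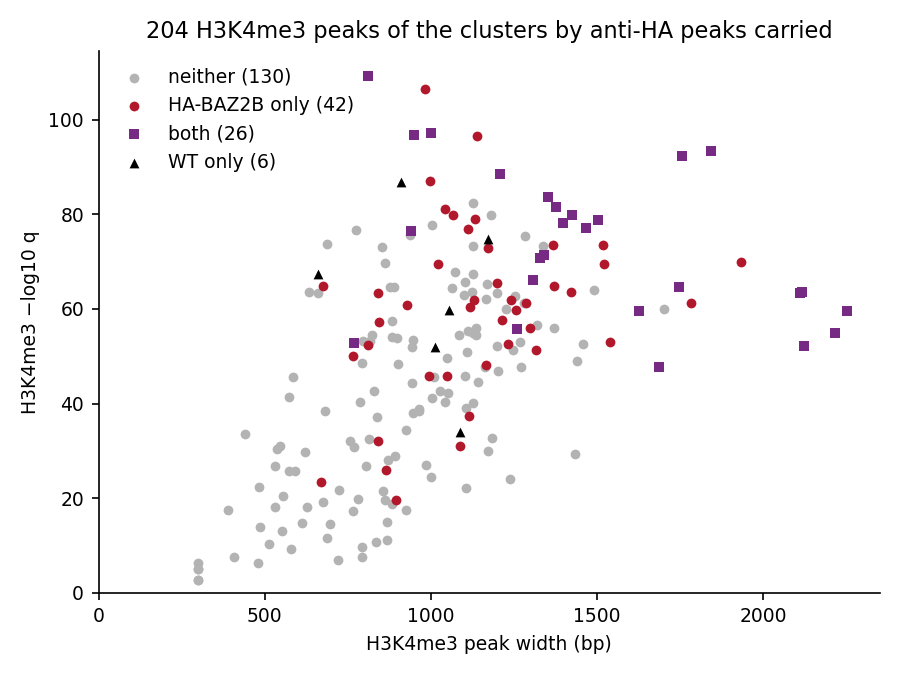
Width in bp (x axis) against −log10 q (y axis) of the cluster H3K4me3 peaks, 1 point per peak, marked by whether the peak overlaps an HA-BAZ2B peak, a WT peak, both or neither. The 26 peaks with both have a median width of 1412 bp and lie to the upper right of the 130 with neither, whose median width is 890 bp.

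HA-BAZ2B peaks lay on 68 of the 204 cluster H3K4me3 peaks (33.3%, 26.9% to 40.3%). The share was 45.2% (406 of 898, 41.9% to 48.5%) on the rest of chromosome 19 and 39.6% (38.9% to 40.4%) over all chromosomes outside the windows, with 39.5% over the whole list as background. The interval of the clusters lay below that of the rest of their own chromosome and reached the level of the genome. The first of these did not hold without 19q13.31, where the cluster share was 37.0% (30.0% to 44.4%), or with an overlap covering 50% of the H3K4me3 peak, where it was 32.4% (26.0% to 39.2%) against 41.6% (38.4% to 45.0%): the intervals then overlapped. WT peaks lay on 32 of the 204 (15.7%, 11.0% to 21.4%), against 19.5% (16.9% to 22.2%) on the rest of the chromosome and 13.1% as background, and these intervals overlap. Every anti-HA member lay on H3K4me3: 68 of 68 HA-BAZ2B peaks (94.7% to 100%, background 99.0%) and 32 of 32 WT peaks (89.1% to 100%, background 93.4%).

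Single clusters ran from none to about the level of the rest of the chromosome. HA-BAZ2B peaks lay on 3 of 16 H3K4me3 peaks in distal 19p13.2 (18.8%, 4.05% to 45.6%) and 6 of 12 in proximal 19p13.2 (50%, 21.1% to 78.9%). In 19p12 they lay on 10 of 27 (37.0%, 19.4% to 57.6%) and in 19q13.12 on 13 of 29 (44.8%, 26.4% to 64.3%). In 19q13.41 they lay on 6 of 22 (27.3%, 10.7% to 50.2%) and in 19q13.43 on 30 of 78 (38.5%, 27.7% to 50.2%). In 19q13.31 none of 20 H3K4me3 peaks carried one, with an exact interval of 0% to 16.8% (the approximate limit of 3 counts is 15%). The interval of 19q13.31 thus lies below that of all clusters together, which includes its 20 peaks. It overlaps the intervals of distal 19p13.2 and 19q13.41. This cluster was picked out here because its count was 0. WT peaks lay on 1, 1, 3, 6, 1, 4 and 16 H3K4me3 peaks of the 7 clusters in chromosomal order.

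**Figure D2:**
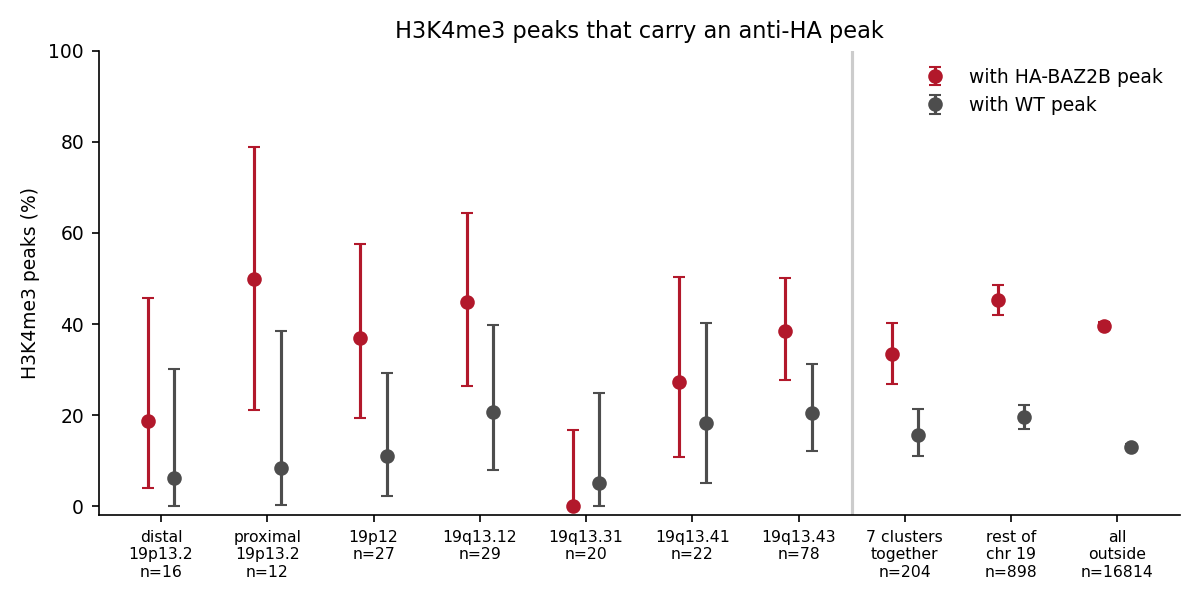
Percent of H3K4me3 peaks (axis) that overlap an HA-BAZ2B peak or a WT peak in each cluster, in all clusters and on the rest of chromosome 19, with exact 95% binomial intervals as bars. In 19q13.31 the HA-BAZ2B share is 0 of 20, and all clusters together have 33.3% against 45.2% on the rest of the chromosome.

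For the 20 H3K4me3 peaks of 19q13.31, fold enrichment was near that of the other clusters and −log10 q was lower. Their fold enrichment ran from 7.51 to 16.6 with a median of 11.7, against 10.97 for all cluster peaks. Their widths ran from 573 to 1439 bp with a median of 1001.5 bp, close to 1010.5 bp for all cluster peaks. Their median −log10 q was 41.7, against 52.7 for all cluster peaks, and distal 19p13.2 alone was lower (38.4). The highest by fold enrichment, chr19:44905198-44905856 (16.6, −log10 q 67.4), overlapped the single WT peak of the cluster, chr19:44905236-44905649, which had a fold enrichment of 4.89 and a −log10 q of 3.65. The widest, chr19:44506635-44508073 (1439 bp, fold enrichment 10.7), carried neither. A share of 29.7% would be given by the outside peaks of like −log10 q, width and fold enrichment, weighted as described below. That share is above the upper bound of 16.8% for 19q13.31. The cluster was picked for having no HA-BAZ2B peak, and the weighting was chosen after the values were seen. The comparison therefore cannot show whether the absence goes beyond counting error, and this was not tested.

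**Figure D3:**
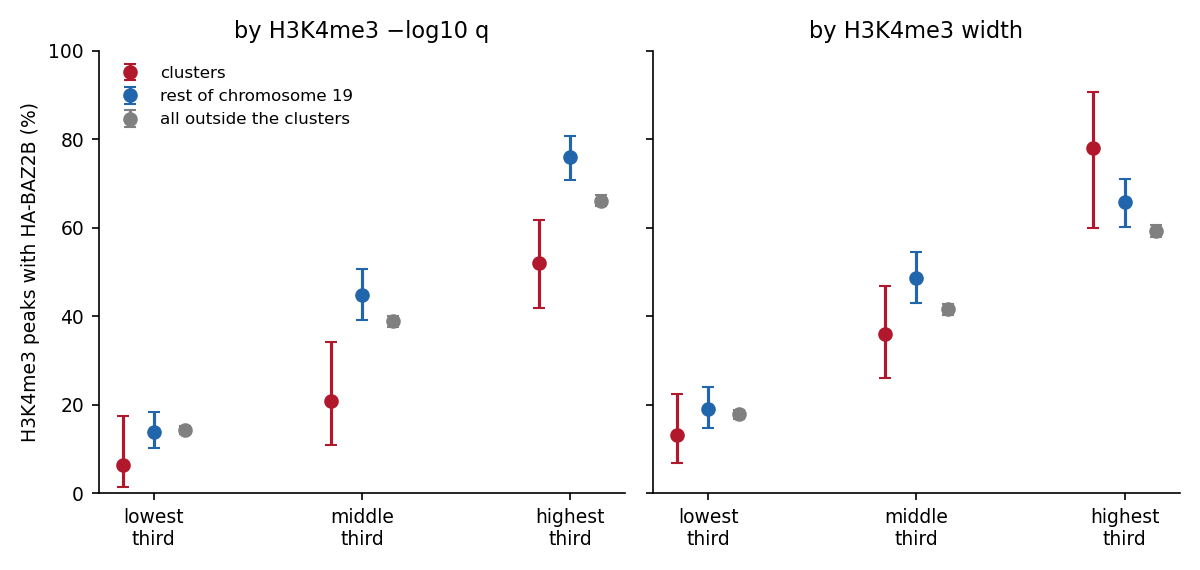
HA-BAZ2B share of H3K4me3 peaks in percent (y axis), in 3 classes of equal size of the whole H3K4me3 list. Classes are by −log10 q (left) and by width (right). Points are for the clusters, the rest of chromosome 19 and all chromosomes outside the windows, with exact 95% binomial intervals as bars. In the highest class by −log10 q the clusters have 51.9% and the rest of the chromosome 75.99%. In the highest class by width they have 78.1% and 65.7%, with intervals that overlap.

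Because stronger H3K4me3 peaks carried HA-BAZ2B peaks more often, shares were also given within 3 classes of equal size of the whole list. Among peaks in the highest class by −log10 q, which held 104 of the 204 cluster peaks (51.0%), 54 carried an HA-BAZ2B peak (51.9%, 41.9% to 61.8%), against 75.99% (70.8% to 80.7%) on the rest of chromosome 19. In the middle class the shares were 20.8% and 44.8%, and in the lowest 6.38% and 13.9%. By width the cluster share was the higher only in the highest class, and in each class the intervals of the clusters and the rest of the chromosome overlapped. The highest class held 32 cluster peaks, of which 25 carried an HA-BAZ2B peak (78.1%, 60.0% to 90.7%), against 65.7% (60.1% to 71.0%) on the rest of the chromosome. The middle class had 35.96% against 48.7% and the lowest 13.3% against 19.01%. By fold enrichment the cluster shares were 39.4%, 37.3% and 30.0% from the lowest to the highest class, against 37.9%, 54.7% and 46.4%.

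Peaks outside the windows were also weighted to the mix of the cluster peaks over those classes of −log10 q, width and fold enrichment jointly. The HA-BAZ2B share would then be 47.5% at the rates of the rest of chromosome 19, where 1 member had no like peak, and 42.1% at those of all chromosomes outside the windows, against 33.3% observed. The WT share would be 20.4% and 13.4%, against 15.7% observed, within the interval of 11.0% to 21.4%. Per cluster, at the rates of all chromosomes outside the windows, the HA-BAZ2B share would be 32.3% in distal 19p13.2, 45.7% in proximal 19p13.2, 32.2% in 19p12, 47.9% in 19q13.12, 36.5% in 19q13.41 and 49.5% in 19q13.43. Observed shares were below these in distal 19p13.2, 19q13.12, 19q13.41 and 19q13.43, and above them in proximal 19p13.2 and 19p12. In each of these clusters the weighted share lay within the exact interval of the observed share given above. For the clusters together, both weighted HA-BAZ2B shares lay above the observed interval of 26.9% to 40.3%. None of these differences was tested. This weighting was chosen after the values were seen.

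The width of an H3K4me3 peak went along with what it carried. The 26 cluster peaks with both an HA-BAZ2B and a WT peak had a median width of 1412 bp and a median −log10 q of 73.9. The 42 with an HA-BAZ2B peak only had 1123.5 bp and 61.2, the 6 with a WT peak only had 1033.5 bp and 63.6, and the 130 with neither (63.7%) had 890 bp and 41.8. Over all chromosomes outside the windows the median widths were 1419, 1306, 775 and 986 bp in the same order. Peaks with a WT peak only had a median −log10 q of 16.4 there. In the clusters fold enrichment did not go with carriage: its median was 10.7 for the 68 with an HA-BAZ2B peak and 11.1 for the 136 without. On the rest of chromosome 19 it was 8.69 and 7.78. Where a WT peak was present, 26 of 32 cluster H3K4me3 peaks also carried an HA-BAZ2B peak (81.25%), and where none was, 42 of 172 did (24.4%, 18.2% to 31.5%). On the rest of the chromosome the corresponding shares were 92.6% and 33.7%.

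The HA-BAZ2B members themselves were high for their list. Their median fold enrichment was 10.3 (interquartile range 8.36 to 12.6), against 8.21 on the rest of chromosome 19 and 8.14 outside the windows, and their median −log10 q was 39.5, against 29.0 and 28.4. Of the 68, 21 (30.9%, 20.2% to 43.3%) were in the top 10% of the whole list by fold enrichment. The highest was chr19:24269869-24270707 in 19p12, 839 bp wide with a fold enrichment of 17.1, the 10th highest of the whole list. It lay on the highest H3K4me3 peak of the clusters, chr19:24269839-24270650 (19.1), and the WT list had a peak there of 319 bp with a fold enrichment of 7.09. In distal 19p13.2 the highest HA-BAZ2B peak was chr19:9419739-9420893 (11.3), and in 19q13.41 it was chr19:52642636-52643383 (13.1), neither with a WT peak. The highest of the other clusters with an HA-BAZ2B peak are given in the paragraphs that follow.

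Among the 42 HA-BAZ2B peaks without a WT peak, 3 of the 5 highest by fold enrichment lay in 19p12. The highest was chr19:21264956-21265615 in 19p12, with a fold enrichment of 16.1 on an H3K4me3 peak of 17.5. The next, chr19:22034196-22034929, had 15.0 on an H3K4me3 peak of 14.8. The 5 highest were completed by chr19:36869335-36870200 in 19q13.12 (14.9 on 13.7), chr19:23432355-23433278 in 19p12 (14.7 on 13.8) and chr19:58280958-58281745 in 19q13.43 (14.4 on 16.1). At the other end stood chr19:38489935-38490226, 292 bp wide with a fold enrichment of 4.01 and a −log10 q of 2.85, which lay on an H3K4me3 peak of 669 bp and 10.6.

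Among the 26 HA-BAZ2B peaks with a WT peak, the second highest was chr19:11616034-11616718 in proximal 19p13.2, with a fold enrichment of 15.1 and a WT peak of 4.80. The widest was chr19:59055142-59057493 in 19q13.43, 2352 bp with a fold enrichment of 4.79, on an H3K4me3 peak of 2215 bp and 5.72 and with a WT peak of 950 bp and 5.21. All of the 5 widest H3K4me3 peaks of the clusters, 2111 to 2253 bp, carried both anti-HA peaks, and 4 of them lay between 56.0 and 59.1 Mb. Scores come from 1 library per list and are not scaled between lists, so that they rank peaks within a list and do not compare the tagged with the untagged cells.

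**Figure D4:**
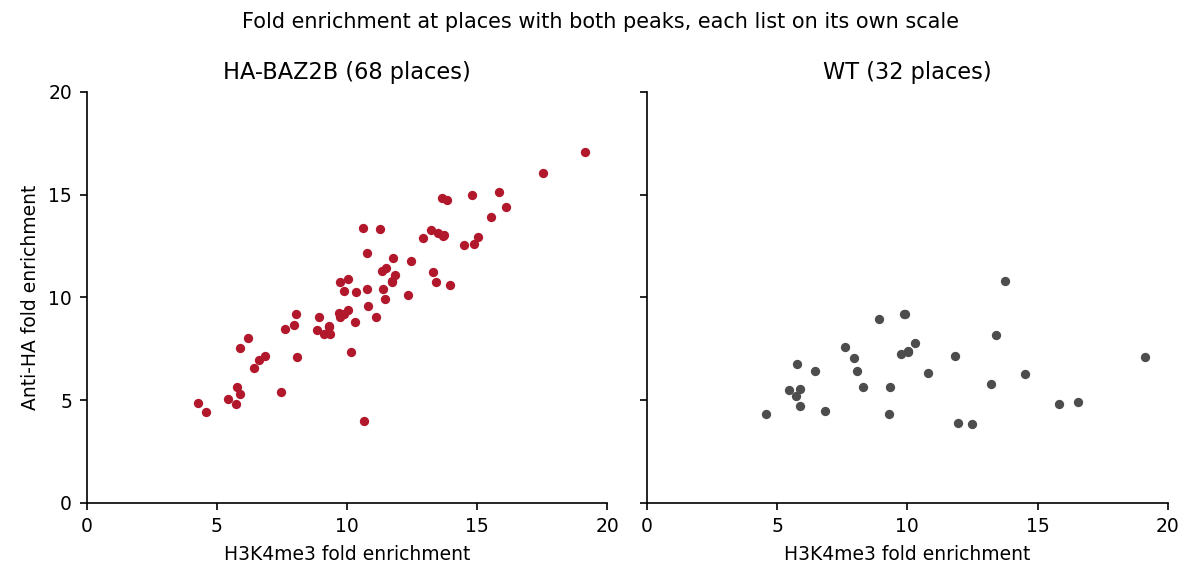
Fold enrichment of HA-BAZ2B peaks (left) and WT peaks (right) on the y axis against that of the H3K4me3 peak they overlap on the x axis, 1 point per pair of peaks in the clusters. The HA-BAZ2B points rise with H3K4me3 (rho 0.89 over 68 pairs) and the WT points spread (rho 0.19 over 32 pairs).

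HA-BAZ2B peaks followed the width and fold enrichment of the H3K4me3 peak below them more closely than WT peaks did, while summit distances were alike. Over 68 one-to-one pairs, the width of the HA-BAZ2B peak over that of its H3K4me3 peak had a median of 0.934 (interquartile range 0.852 to 1.01). The summits were a median of 37.5 bp apart (10.75 to 173.5 bp). Across these peaks, Spearman's rho was 0.90 by width and 0.89 by fold enrichment. On the rest of chromosome 19 the 395 pairs had a width ratio of 0.867, summits 79 bp apart and rho of 0.87 and 0.74. For the 32 WT peaks of the clusters, the width ratio was 0.433, the summits were 51 bp apart (12.25 to 129.75 bp) and rho was 0.63 by width and 0.19 by fold enrichment. The 174 WT pairs on the rest of the chromosome had a width ratio of 0.534, summits 64.5 bp apart and rho of 0.46 and 0.27. Where both anti-HA lists had a peak, the width ratio of HA-BAZ2B to WT had a median of 2.103 over 26 pairs, with rho of 0.46 by width and 0.44 by fold enrichment. These correlations are across peaks of the same libraries, which are not replicates, and the HA-BAZ2B and H3K4me3 libraries share the tagged line.

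The WT members had a median width of 550.5 bp (95% interval of the median 450 to 734 bp), against 688 bp on the rest of the chromosome and 639 bp outside the windows, both within that interval. Their median fold enrichment was 6.36, between 6.03 on the rest of the chromosome and 6.43 outside the windows. WT peaks lay under 26 of 68 HA-BAZ2B peaks (38.2%, 26.7% to 50.8%), against 40.0% on the rest of chromosome 19, 27.8% on the other chromosomes and 28.7% as background. In 19q13.43 they lay under 15 of 30, and without that cluster under 11 of 38 (28.9%, 15.4% to 45.9%). In the other direction, 26 of 32 WT peaks lay on an HA-BAZ2B peak (81.25%, 63.6% to 92.8%), against 91.1% on the rest of the chromosome and 81.0% as background. Without 19q13.43 it was 11 of 16 (68.75%, 41.3% to 89.0%). The highest WT peak was chr19:23869598-23870059 in 19p12, with a fold enrichment of 10.8 beside 13.0 for its HA-BAZ2B peak. The 6 WT peaks without an HA-BAZ2B peak were low, with fold enrichments of 3.89 to 6.31, and lay 1 in 19q13.31, 2 in 19q13.41, 1 in 19q13.43, 1 in 19q13.12 and 1 in 19q13.13. They were chr19:37861793-37862202, chr19:38422697-38423100, chr19:44905236-44905649, chr19:52511533-52511893, chr19:52531452-52531907 and chr19:56915443-56915741.

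Some of the strongest H3K4me3 peaks carried no HA-BAZ2B peak. By −log10 q, the first was chr19:52531246-52532154 in 19q13.41 (86.8, fold enrichment 14.5), which had a WT peak of 6.29. It was followed by chr19:52772708-52773833 in 19q13.41 (82.3), chr19:57106327-57107506 (79.8), chr19:57922283-57923286 (77.8) and chr19:58125506-58126280 (76.6) in 19q13.43, none with a WT peak. By fold enrichment, the second highest H3K4me3 peak of the clusters, chr19:21324719-21325350 in 19p12 (17.99, 632 bp), had neither, while the neighbouring peak, chr19:21264857-21265531 (17.5, 675 bp) carried the HA-BAZ2B peak of 16.1 named above.

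How many peaks the recurrence filter removed can be bounded, because the caller numbers its peaks in order and the deposited names keep those numbers. In the clusters, 68 HA-BAZ2B peaks were kept of 185 to 224 numbered in the source library (30.4% to 36.8%), against 407 of 808 to 852 on the rest of chromosome 19 (47.8% to 50.4%) and at most 43.2% over all 7027 rows of the list, other contigs included. For H3K4me3 the order was the other way, with 204 kept of 220 to 224 (91.1% to 92.7%) in the clusters against 79.6% to 79.9% on the rest of the chromosome. For WT, 32 were kept of 71 to 128 (25% to 45.1%), against 34.4% to 39.3%. In 19q13.31, no HA-BAZ2B peak was kept and at most 22 numbers of the source library fall between the kept peaks on either side, at 44.26 and 45.0044 Mb, so that peaks of that library may have been there and not recurred. H3K4me3 kept 20 of 20 or 21 there. The part of recurrence between replicates in the lower HA-BAZ2B share of the clusters was not tested.

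**Figure D5:**
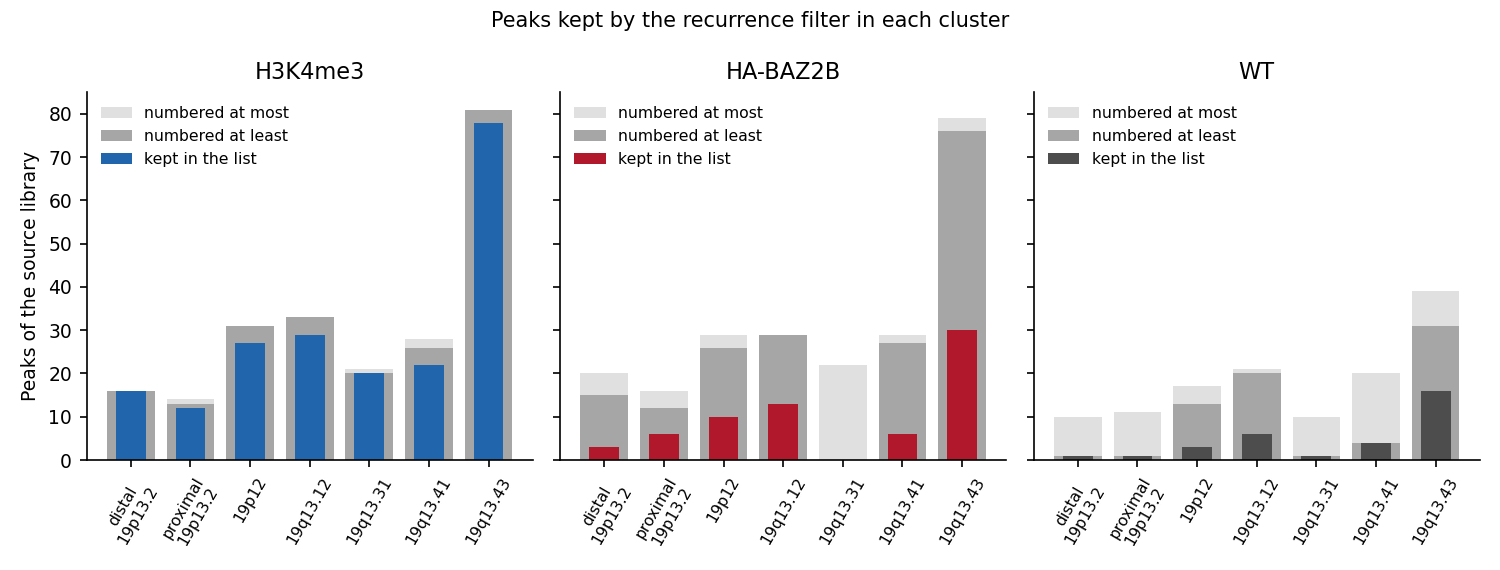
Number of peaks kept in each cluster, with the least and the most that the source library can have numbered there, for the H3K4me3, HA-BAZ2B and WT lists. In 19q13.31 the HA-BAZ2B list kept 0 of at most 22 and the H3K4me3 list 20 of at most 21.

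The shares of the G-run pattern and of HA-BAZ2B peaks were set side by side for the 7 clusters. 19q13.41 had the pattern in 54.5% of its zinc finger gene promoters and an HA-BAZ2B peak on 27.3% of H3K4me3 peaks, and 19q13.12 had 4.17% and 44.8%. 19q13.31 had 0 on both counts, and 19p12 had 3.33% and 37.0%. The shares were 30% and 18.8% in distal 19p13.2, 20% and 50% in proximal 19p13.2, and 21.3% and 38.5% in 19q13.43. Across the 7 clusters Spearman's rho was 0.04 and Pearson's r 0.03, given as a description over points that share the same libraries. So few points cannot show whether the shares are related, and this was not tested. The promoters are the RefSeq promoters of the zinc finger genes of a stretch, whether used in A549 or not, while the H3K4me3 peaks are all those called in the window in A549.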

How the data were processed

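The 9 CUT&Tag libraries (3 groups of 3) gave 3 deposited peak lists. Per the submitters' processing notes, Bowtie2 2.4.5, Picard, SAMtools 1.15.1, bedtools and MACS2 2.1.4 were used with hg19 and dm6; MACS2 settings and any control: not given in the sources used here. By the labels, peaks in at least 2 replicates were kept, with rows of the largest file: replicate 3 for HA-BAZ2B, 2 for WT and 1 for H3K4me3, by the deposited peak names. Fold enrichment is a ratio and −log10 q a significance, as deposited by the authors, together with the authors' integer score and positions. The lowest −log10 q was 1.36. Depth is unknown, because the lists hold no read counts.

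Overlap needed 1 bp. Shares, exact 95% intervals, medians and, for one-to-one pairs, Spearman's rho were computed with Python 3.11.15, and hg19 bands came from circlize 0.4.16 in R 4.3.3. With 1 list per group no test across samples was possible. Alternatives were a 50% overlap, a −log10 q of at least 5, equal list lengths, whole intervals inside the windows, and each window left out; moving the window edges by 100 kb and the weighted shares were added after the data were seen. Calculations were checked on simulated data. The members and lists were chosen with earlier results of these data known. Peaks named are those highest or widest in each list and class, by fold enrichment, −log10 q or width; 19q13.31 peaks, the lowest and widest HA-BAZ2B peaks and the promoters printed were chosen after values were seen.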

Additional observations from a re-analysis of the deposited data

How the results depend on the processing

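Over 15 results and 177 alternative values, 169 stayed within the range set for the value reported and 8 did not. For shares the range was the counting interval, and for medians the interval of the median. For densities it was a fixed band around the value (9.58 to 21.5 per Mb for H3K4me3), which was not computed from counts. The H3K4me3 density without 19p12, 18.6 per Mb against 14.4, lay within that band. HA-BAZ2B densities of 6.11 without 19p12 and 3.42 without 19q13.43, against 4.79, lay within theirs. Among the 169, those without 19q13.31 (37.0%) and with 50% overlap (32.4%) still brought the HA-BAZ2B share's interval into overlap with that of the rest of chromosome 19. With both lists reduced by −log10 q to equal length, the HA-BAZ2B share of cluster H3K4me3 peaks was 50% (58 of 116), against 74.0% on the rest of chromosome 19, the WT share was 40.9% against 42.6%, and of the WT peaks 53.1% overlapped HA-BAZ2B (reported as 81.25%). At equal length, 85.3% of HA-BAZ2B peaks and 56.25% of WT peaks overlapped H3K4me3; this setting leaves fewer peaks in the longer list. With 50% of the first peak to be covered, the WT share of H3K4me3 peaks was 4.90% against 10.4%, and 13.2% of HA-BAZ2B peaks overlapped WT (reported as 38.2%), which asks more of the narrow WT peaks. Without the window from 56.0 to 59.1 Mb, the WT density was 1.44 per Mb against 2.25. Across the alternatives the HA-BAZ2B share on the rest of chromosome 19 was 41.6% to 74.0%.

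No paired analysis was possible because the lists hold 1 set of peaks per group and no value per replicate. Read depth is unknown, so a missing peak says only that none was called in at least 2 replicates. Shares in single clusters rest on 12 to 78 H3K4me3 peaks.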
